A study of Mus musculus with 6 samples.

Results

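Interferon-stimulated genes are the genes that a cell switches on when interferon reaches its receptor. The genes described here were 39 such genes and their regulators, chosen by name with earlier results of these data known. They were followed in the stria vascularis, the vascular epithelium of the cochlear lateral wall that secretes potassium into endolymph. RNA of this tissue from mice at postnatal day 10 was measured on 6 Affymetrix oligonucleotide arrays. There were 3 arrays of mice heterozygous for Slc26a4 (replicates 1, 3 and 5) and 3 of Slc26a4 knockout mice (replicates 2, 4 and 6), the gene of the anion exchanger pendrin. Heterozygous mice, which carry 1 mutant copy, were the only controls. The labels give no strain, sex, allele or count of animals per array, so every p-value here reflects only how these arrays scattered, which may be partly technical.

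These arrays read a gene through probe sets, groups of short oligonucleotides that match the 3' end of its transcript. Every probe set annotated with exactly 1 of the 39 symbols was taken, which gave 61 probe sets for 37 genes. Isg15 had only a probe set shared with another gene and Ifi44 had none under that symbol, so neither is reported. Removal of dim probe sets (mean below a signal of about 43.9) left 48 probe sets, which stood for 33 of the 12428 genes tested. The 4 genes that dropped out were Mx2, Isg20, Oas2 and Oasl1. Where a gene had several probe sets, the brightest of those tested stood for it.

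Double-stranded RNA in the cytosol is recognised by helicases such as RIG-I (Ddx58) and MDA5 (Ifih1), and the signal leads to secretion of type I interferon. The type I interferon receptor activates a complex that holds STAT2 and IRF9, which binds the interferon-stimulated response element in promoters. Interferon-gamma acts through the gamma-activated sequence and through IRF1, and it drives the GTPases of the Gbp and Irg families and the machinery that loads peptides on class I molecules. Nearly all nucleated cells can respond, and in tissue the responders include endothelial cells and macrophages.

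The promoters of several of these genes are shown first, and each stretch shown holds a match to an element named above. The stretches come from RefSeq promoter windows of build GRCm38.p6, which span 250 bases before to 50 after a gene's start, and 29 of the 39 genes matched a window. Each stretch holds 80 bases, read 5' to 3' on the strand of the gene. Capitals mark matches to the core of the response element, GAAANNGAAA or its reverse complement TTTCNNTTTC. In Irf1 they mark the gamma-activated sequence, TTCNNNGAA, which reads the same on both strands.
Rsad2, chr12:26456528-26456607, minus strand: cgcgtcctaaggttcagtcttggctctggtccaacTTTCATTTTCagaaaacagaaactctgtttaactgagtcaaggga
Ifit1, chr19:34640759-34640838, plus strand: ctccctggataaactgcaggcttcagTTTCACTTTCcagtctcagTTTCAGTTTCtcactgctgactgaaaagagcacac
Ifit3, chr19:34583355-34583434, plus strand: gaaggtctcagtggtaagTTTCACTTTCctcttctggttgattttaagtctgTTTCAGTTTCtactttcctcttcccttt
Gbp2, chr3:142620569-142620648, plus strand: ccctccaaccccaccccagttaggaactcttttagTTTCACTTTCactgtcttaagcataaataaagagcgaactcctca
Irgm1, chr11:48871403-48871482, minus strand: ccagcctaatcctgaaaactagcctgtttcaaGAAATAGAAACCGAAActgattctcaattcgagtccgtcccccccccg
Cxcl10, chr5:92349058-92349137, minus strand: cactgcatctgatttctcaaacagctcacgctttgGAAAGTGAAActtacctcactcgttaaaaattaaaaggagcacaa
Irf1, chr11:53769888-53769967, plus strand: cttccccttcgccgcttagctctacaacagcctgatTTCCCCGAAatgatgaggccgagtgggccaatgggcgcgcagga

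The response element core occurred in the window of 15 of the 29 matched genes (51.7%), and in 3.99% of all 27025 genes with a window. Its first match lay 120 bases before the start of Rsad2, 104 before that of Ifit1, 156 before that of Ifit3, 59 before that of Gbp2, 30 before that of Irgm1 and 213 before that of Cxcl10. Ifit1, Ifit3 and Irgm1 held 2 matches each, and those of Irgm1 overlap. The gamma-activated sequence was found in 8 of the 29 genes (27.6%), among them Irf1 at 90 bases before the start, and in 9.55% of all genes. These matches are descriptions of letters, and a window without a match says only that the letters were not in it.

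None of the interferon-stimulated genes passed the test between genotypes. Their median level had an SD of 0.24 log2 units between arrays of a genotype, about the size of the difference between genotypes. The heterozygous array of replicate 3 had the highest signal of all 6 arrays for 21 of the 33 genes (63.6%), where the same array was highest for 17.1% of all genes tested. The log2 difference of knockout minus heterozygous samples was below 0 for 28 of the 33 genes (84.8%), against 56.8% of all genes. With the arrays centred on their medians these shares were 32 of 33 and 84.8%, and with quantile normalisation 31 of 33 and 62%. The median with the deposited scale was -0.25 over the 33 genes and -0.04 over all genes. Without heterozygous replicate 3 the median was -0.09 over the 33 genes and -0.04 over all genes. In that setting 22 of the 33 genes (66.7%) lay below 0, against 56.9% of all genes. As the genes were chosen with earlier results of these data known, these shares are descriptions only.

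Of the 48 probe sets tested, 0 passed limma's test at an adjusted p of 0.05, where 1 of 27022 probe sets in the whole table did (0.0037%). The smallest adjusted p among them was 0.370. At an unadjusted p under 0.05, 2 of the 48 probe sets were lower in knockout samples (4.17%), against 2.47% of all probe sets, and 0 were higher, against 9.14%. Both of the lower ones were second probe sets, of Rtp4 and Stat2. The knockout arrays all lay below the heterozygous ones for 2 of the 33 genes (6.06%), Ifit3 and Irgm1, against 7.03% of all genes. They all lay above for 1 gene (3.03%), Irf1, against 6.05% of all genes. With the brightest probe set of each gene, these shares were thus no larger than the background. When probe sets were instead averaged per gene, 5 of the 33 genes (15.2%) were below without overlap, against 7.09% of all genes. For a single gene an exact two-sided permutation test over 3 against 3 arrays cannot give a p below 0.1, which was reached where the groups did not overlap.

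**Figure D1:**
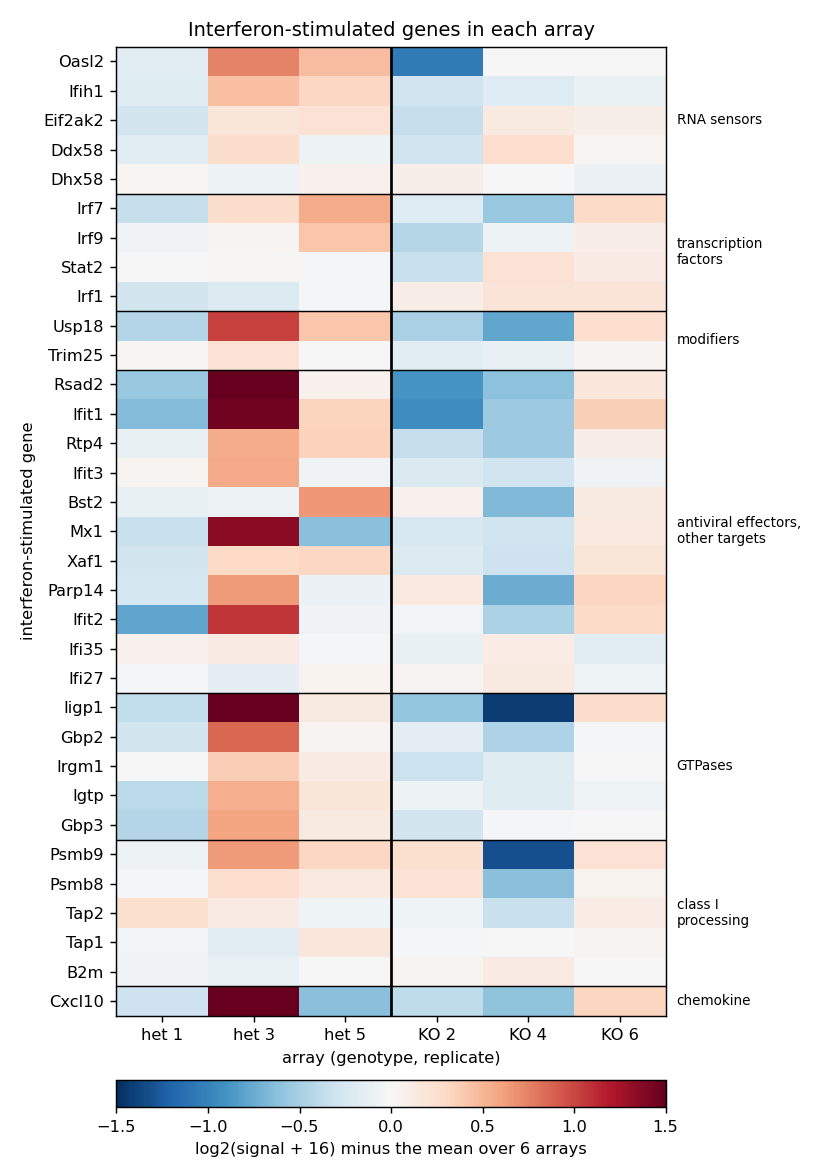
Heat map of the 33 interferon-stimulated genes (rows, grouped by role) in the 6 arrays (columns: het, heterozygous; KO, knockout; number, replicate). Colour is log2(signal + 16) minus the gene's mean over the 6 arrays, and values beyond 1.5 in either direction are drawn in the end colours. The column of het 3 lies above the mean for 27 of the 33 genes, that of KO 6 for 22 and that of KO 4 for 7.

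Each array had been scaled to a mean signal of 500.002 after trimming 2% at either end, but the median signal was 76.8 to 82.3 in heterozygous and 88.8 to 104.8 in knockout arrays, higher in every knockout array. Knockout replicate 4 stood apart, with a mean correlation of 0.931 with the other arrays against 0.966 to 0.971 for the rest. Its ratio of 3' to 5' actin signal was 4.48, against 2.42 to 3.15 on the others. The part of RNA quality in the differences below was not tested. The Slc26a4 signal was 221, 248 and 1006 in heterozygous and 75.5, 106 and 154 in knockout arrays. Markers fixed for the strial cells were measured, with 8 of 10 marginal cell, 7 of 7 basal cell and 13 of 15 intermediate cell genes above the filter. The marginal cell genes not tested had no probe set under their symbol.

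Among the sensors of double-stranded RNA, Oasl2 and Ifih1 had the largest differences between genotypes. All 5 tested sensors lay below 0, with a median log2 difference of -0.08. Oasl2, an oligoadenylate synthetase-like protein, gave signals of 100, 200 and 162 in heterozygous replicates 1, 3 and 5 and of 46.6, 112 and 113 in knockout replicates 2, 4 and 6. The groups overlapped, with knockout replicates 4 and 6 above heterozygous replicate 1. Its log2 difference was -0.70 with a standard error (SE) of 0.35 (limma adjusted p = 0.471), and without knockout replicate 2, the lowest array, it was -0.36.

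Ifih1, which encodes the sensor MDA5 of long double-stranded RNA, gave 512, 801 and 728 in heterozygous and 470, 508 and 543 in knockout arrays. Heterozygous replicate 1 lay among the knockout values. The log2 difference was -0.39 ± 0.20 (SE), with a limma adjusted p of 0.485. Ddx58, the sensor of short 5'-triphosphate RNA, stood at 522 ± 88.1 (SD, n = 3) in heterozygous samples and at 518 ± 100 (SD, n = 3) in knockout samples. Dhx58, a helicase that tunes both sensors, stood at 86.3 ± 5.12 and 86.1 ± 6.38. Eif2ak2, the kinase PKR that halts translation, had a log2 difference of -0.08, and its other probe sets gave 0.05 and -0.12. In Ddx58, Dhx58 and Eif2ak2 the genotypes thus differed by less than the spread between replicates.

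The transcription factors went in both directions, and by the brightest probe set none had its highest signal in heterozygous replicate 3. A dimmer probe set of Stat2 did. Irf1, the factor induced by interferon-gamma, was the gene with the largest positive difference. Its signal was 248, 262 and 300 in heterozygous and 327, 348 and 349 in knockout arrays. Every knockout array lay above every heterozygous one, though with median centring of the arrays the groups overlapped. The log2 difference was 0.33 ± 0.19 (SE) with a limma adjusted p of 0.539, and it stayed between 0.27 and 0.40 when any single array was left out.

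Irf7, the factor that amplifies production of type I interferon, had the opposite sign, with 76.6, 125 and 157 in heterozygous and 87.1, 63.1 and 128 in knockout arrays. The groups overlapped widely, and the log2 difference was -0.32 ± 0.32 (SE). Irf9, the DNA-binding partner of STAT2, gave 701, 748 and 979 against 537, 691 and 779, a log2 difference of -0.27 ± 0.20 (SE). Their limma adjusted p-values were 0.742 and 0.641. Without heterozygous replicate 5, the array in which both were highest, the differences were -0.12 for Irf7 and -0.13 for Irf9.

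Stat2, the partner of IRF9, was read differently by its probe sets. The brighter probe set gave 150, 153 and 149 in heterozygous and 117, 178 and 166 in knockout arrays, a log2 difference of 0.01 ± 0.23 (SE). The dimmer probe set gave 66.8, 117 and 81.8 against 35.7, 62.4 and 46.4, with every knockout array lower and a log2 difference of -0.70 ± 0.28 (SE, unadjusted p = 0.0330, limma adjusted p = 0.392). The direction for Stat2 was therefore not settled. Eif2ak2, Parp14, Ifi27 and B2m also had tested probe sets of opposite sign.

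The modifiers Usp18 and Trim25 both lay below 0. Usp18 removes ISG15 from proteins and restrains the interferon receptor. It gave 232, 667 and 431 in heterozygous and 223, 179 and 382 in knockout arrays, so that heterozygous replicate 1 sat at the level of the lower knockout arrays. The log2 difference was -0.68 ± 0.38 (SE, limma adjusted p = 0.524) and -0.33 without heterozygous replicate 3. Trim25, the ubiquitin ligase that activates RIG-I, stood at 822 ± 72.9 and 734 ± 56.6 (SD, n = 3 each), a log2 difference of -0.16. A dimmer tested probe set of Trim25 had means of 441.5 and 382.5, with every knockout array lower. Its log2 difference was -0.20 (limma adjusted p = 0.699).

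Antiviral effectors made up the largest group. Of 11 tested, 10 lay below 0, with a median log2 difference of -0.27, and 8 had their highest signal in heterozygous replicate 3. Rsad2 encodes viperin, an enzyme that makes a chain-terminating nucleotide. Its signal was 241, 1356 and 382 in heterozygous and 192, 234 and 410 in knockout arrays. Apart from the value of 1356, the heterozygous signals lay within the knockout range. Its log2 difference was -0.89 ± 0.53 (SE, limma adjusted p = 0.556), and -0.19 without that array. A dimmer probe set of Rsad2 gave -0.52 ± 0.40 (SE).

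Ifit1, which binds viral RNA that lacks cap methylation, was likewise highest in heterozygous replicate 3 and lowest in knockout replicate 2, with 208, 943 and 427 in heterozygous and 169, 225 and 434 in knockout arrays. The log2 difference was -0.75 ± 0.49 (SE, limma adjusted p = 0.597), and -0.21 without heterozygous replicate 3. Ifit2, from the same gene cluster, gave 159, 618 and 274 against 278, 202 and 353, a log2 difference of -0.15 ± 0.42 (SE). In Ifit2 the lowest of the 6 arrays was heterozygous replicate 1, and the highest was heterozygous replicate 3.

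Ifit3, a partner of Ifit1, was brighter and less variable. It gave 800, 1155 and 748 in heterozygous and 666, 629 and 744 in knockout arrays. All knockout values lay below all heterozygous ones, by a narrow margin between 744 and 748. The log2 difference was -0.38 ± 0.19 (SE, limma adjusted p = 0.486), and -0.19 without heterozygous replicate 3.

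Rtp4, an interferon-induced receptor chaperone, had the smallest adjusted p of the group. Its brighter probe set gave 439, 704 and 605 in heterozygous and 369, 321 and 509 in knockout arrays, a log2 difference of -0.53 ± 0.24 (SE, limma adjusted p = 0.435). The dimmer probe set gave 82.5, 107 and 108 against 45.1, 35.1 and 62.0, with no overlap and a log2 difference of -0.87 ± 0.26 (SE, unadjusted p = 0.00730, limma adjusted p = 0.370). With any single array left out the difference of the brighter probe set lay between -0.71 and -0.38. In Rtp4 the sign thus did not rest on heterozygous replicate 3 (-0.38 without it).

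Bst2, the tetherin that holds budding virus at the membrane, was highest in heterozygous replicate 5, with 288, 293 and 496 against 327, 192 and 342 in knockout arrays. Its log2 difference of -0.31 ± 0.29 (SE, limma adjusted p = 0.727) shrank to -0.06 when heterozygous replicate 5 was left out, and to -0.05 when knockout replicate 4 was. Mx1, a dynamin-like GTPase that traps viral nucleocapsids, gave 41.8, 171 and 31.5 against 45.6, 43.6 and 64.5, so that 5 of the 6 arrays lay between 31.5 and 64.5. Its log2 difference was -0.27 ± 0.46 (SE).

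The genes removed by the filter were dim on average, and all but Oasl1 exceeded its level on single arrays. Mx2 gave signals of 5.83, 37.1 and 60.4 in heterozygous and 35.3, 17.5 and 42.2 in knockout arrays, and Isg20, an RNA exonuclease, lay between 18.2 and 65.4. Oas2, an oligoadenylate synthetase, ranged from 24.8 to 52.9 in heterozygous and from 13.99 to 24.1 in knockout arrays, and Oasl1 from 14.4 to 25.4 over all arrays. They were not tested.

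Among the other effectors, Xaf1 and Parp14 had log2 differences of -0.22 and -0.18, and Ifi35 of -0.11. Other tested probe sets gave -0.11 for Xaf1, 0.56 for Parp14, and -0.27 and -0.22 for Ifi35. The probe set that stood for Ifi35 was far brighter, with means of 5537 in heterozygous and 5136 in knockout arrays. Its others had means of 474.7 and 392.2, and of 739.2 and 623.6. Probes of the brightest one may also match other transcripts, which was not tested. Ifi27 was the effector on the other side (0.07), at 5965 ± 407 (SD, n = 3) in heterozygous samples against 6275 ± 444 (SD, n = 3) in knockouts.

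**Figure D2:**
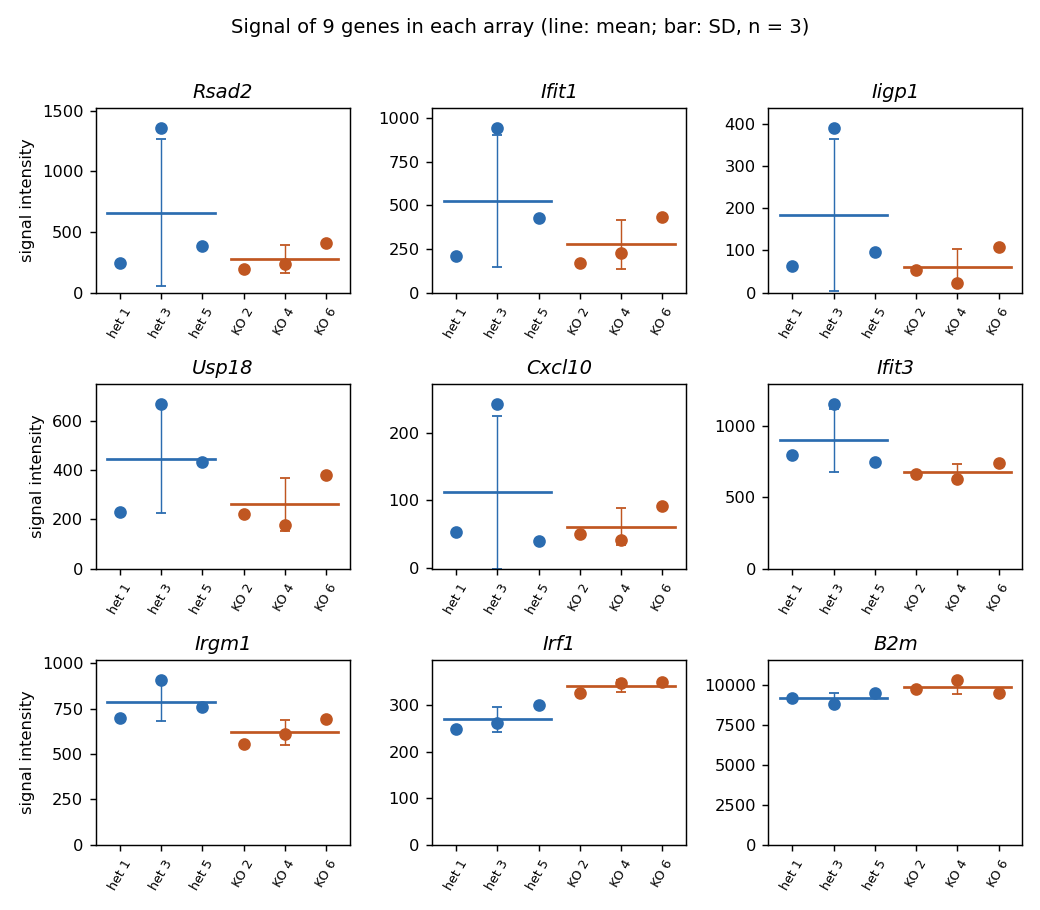
Signal intensity of 9 genes in each array (points; het, heterozygous in blue; KO, knockout in orange), with the mean (line) and SD (bar, n = 3) of each genotype. Heterozygous replicate 3 stands far above the other arrays in Rsad2, Ifit1, Iigp1 and Cxcl10, while Irf1 is higher in every knockout array and B2m is nearly level.

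All 5 interferon-inducible GTPases lay below 0, and all 5 were highest in heterozygous replicate 3. Iigp1, which attacks the vacuoles of intracellular parasites, had the largest difference of the 33 genes. Its signal was 64.02, 390 and 97.1 in heterozygous and 53.3, 22.6 and 108 in knockout arrays. The highest knockout array exceeded 2 of the 3 heterozygous arrays. The log2 difference was -1.16 ± 0.59 (SE, limma adjusted p = 0.485), and -0.46 without heterozygous replicate 3. Without knockout replicate 4, the lowest array, it was -0.74. A dimmer probe set of Iigp1 gave -0.90 ± 0.67 (SE, limma adjusted p = 0.643).

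Irgm1, a regulator of the same GTPase family and of autophagy, gave 700, 907 and 758 in heterozygous and 555, 613 and 692 in knockout arrays. The groups did not overlap, with a log2 difference of -0.34 ± 0.17 (SE, limma adjusted p = 0.486) that lay between -0.42 and -0.23 with any single array left out. Gbp2, a guanylate-binding protein that targets pathogen vacuoles, gave 72.8, 179 and 95.0 against 81.3, 62.4 and 90.2, a log2 difference of -0.42 ± 0.32 (SE, limma adjusted p = 0.653). Without heterozygous replicate 3 the difference of Gbp2 was -0.09. These values came from a probe set whose probes may also match related transcripts, and the dimmer one, with 69.4, 166 and 89.1 against 62.0, 30.9 and 84.8, had a log2 difference of -0.72 ± 0.37 (SE, limma adjusted p = 0.485). Gbp3 and Igtp had log2 differences of -0.20 and -0.22.

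Of the 5 genes of class I antigen processing, 3 lay below and 2 above 0, with a median log2 difference of -0.20. B2m, the light chain of class I molecules, gave 9172, 8826 and 9478 in heterozygous and 9752, 10298 and 9478 in knockout arrays, a log2 difference of 0.10 ± 0.07 (SE, limma adjusted p = 0.600). Its dimmer probe set gave -0.03, and the sign of the brighter one turned under quantile normalisation (-0.03) and median centring (-0.10). Tap1, a subunit of the peptide transporter, stood at 223 ± 27.7 and 224 ± 5.68 (SD, n = 3 each), and Tap2, the other subunit, had a log2 difference of -0.20.

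Psmb9, a catalytic subunit of the immunoproteasome, gave 82.0, 145 and 112 in heterozygous and 107, 25.4 and 105 in knockout arrays. Its log2 difference of -0.58 ± 0.42 (SE, limma adjusted p = 0.634) rested on knockout replicate 4, without which it was -0.06. Psmb8, another such subunit, was also lowest in that array, at 82.6, and had a log2 difference of -0.25.

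Cxcl10, a chemokine that attracts T cells and is among the most inducible targets, gave 53.2, 242 and 39.5 in heterozygous and 49.8, 40.3 and 91.5 in knockout arrays. With the value of 242 included the log2 difference was -0.44 ± 0.53 (SE, limma adjusted p = 0.790). Without it the sign turned, to 0.25.

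**Figure D3:**
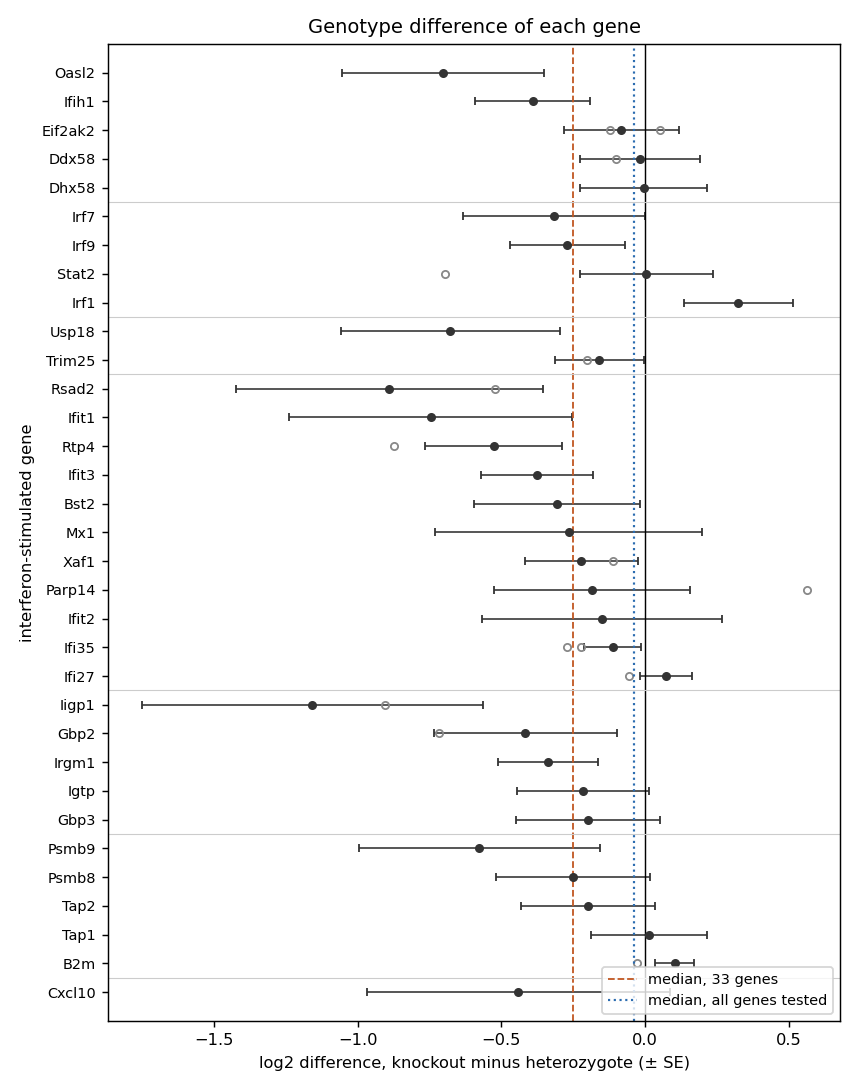
Log2 difference of knockout minus heterozygous samples for the 33 genes, on the log2(signal + 16) scale, with SE (bars). Open points are other tested probe sets of a gene, and the lines mark the median of the 33 genes (-0.25) and of all genes tested (-0.04). Most points lie left of 0, with Irf1 farthest to the right, and the widest bars belong to Iigp1 (0.59) and Rsad2 (0.53).

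The contribution of each array was then measured as its log2 excess, the log2(signal + 16) of a gene in that array minus the mean of the other 5. The median excess over the 33 genes was -0.20, 0.45 and 0.14 in heterozygous replicates 1, 3 and 5, and -0.24, -0.35 and 0.12 in knockout replicates 2, 4 and 6. Over all genes it lay between -0.09 and 0.03. Heterozygous replicate 1 and knockout replicate 6 thus lay on the side opposite to that of their genotype's median. In heterozygous replicate 3, 8 of the 33 genes exceeded the other arrays by over 1 log2 unit, where 0.748% of all genes did. These were Cxcl10, Iigp1, Rsad2, Ifit1, Mx1, Ifit2, Usp18 and Gbp2, with an excess from 2.37 for Iigp1 and 2.21 for Rsad2 down to 1.03 for Gbp2. On each of the other 5 arrays 0 of the 33 genes did so, where the shares of all genes were 0.161% and 1.1% in heterozygous replicates 1 and 5 and 0.394%, 1.94% and 0.418% in knockout replicates 2, 4 and 6.

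The highest signal of the 6 arrays fell in heterozygous replicate 1 for 1 of the 33 genes (16% of all genes), and in replicate 5 for 6 (13.2%). It fell in knockout replicates 2, 4 and 6 for 1, 3 and 1 of them (18.5%, 22.7% and 12.5% of all genes). Outside heterozygous replicates 3 and 5, each array was thus highest for a smaller share of these genes than of all genes.

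The lowest signal fell in knockout replicate 4 for 12 of the 33 genes (36.4%), a share close to the 36.2% of all genes lowest in that array. It fell in knockout replicate 2 for 10 genes (30.3%), against 15.4% of all genes, and in knockout replicate 6 for 2, against 12%. In heterozygous replicates 1, 3 and 5 it fell for 4, 3 and 2 genes, against 12.4%, 15% and 9.02%. Within a genotype the spread of these genes was wide. The median SD on the log2 scale was 0.33 among heterozygous arrays, against 0.15 over all genes, and 0.26 among knockout arrays, against 0.23. The SD was over 0.5 among heterozygous arrays for 9 of the 33 genes, against 4.62% of all genes, and among knockout arrays for 7, against 10.5%. It was widest for Rsad2 (1.25) among heterozygous arrays and for Psmb9 (0.90) among knockout arrays.

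With single arrays left out, the median log2 difference of the 33 genes kept its sign and changed in size. It was -0.44 without heterozygous replicate 1, in which the genes were low, and -0.39 without knockout replicate 6. It was -0.21, -0.23 and -0.17 without heterozygous replicate 5 and knockout replicates 2 and 4, and nearest to 0, at -0.09, without heterozygous replicate 3. The median over all genes was -0.04 in that last case.

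All knockout arrays lay below all heterozygous ones for 12 of the 33 genes without heterozygous replicate 1 (14.7% of all genes) and for 10 without knockout replicate 6 (17%). The count was 2 without heterozygous replicate 3 (10.5%), 3 without replicate 5 (10.3%), and 2 and 3 without knockout replicates 2 and 4 (16% and 9.93%). All knockout arrays lay above for 1, 2 and 3 genes without heterozygous replicates 1, 3 and 5 (10.8%, 8.42% and 9.48% of all genes). They lay above for 2, 1 and 2 genes without knockout replicates 2, 4 and 6 (11%, 9.83% and 14.2%).

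At an unadjusted p under 0.05, 12 of the 48 probe sets were lower in knockout samples without heterozygous replicate 1, against 2.52% of all probe sets. Without heterozygous replicates 3 and 5 the count was 1 each (1.08% and 1.07%). Without knockout replicates 2, 4 and 6 it was 1, 4 and 5 (3.28%, 2.14% and 5.64%). The set of arrays used thus changed how many of these genes stood apart, and at an adjusted p of 0.05 the count was 0 in each case.

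**Figure D4:**
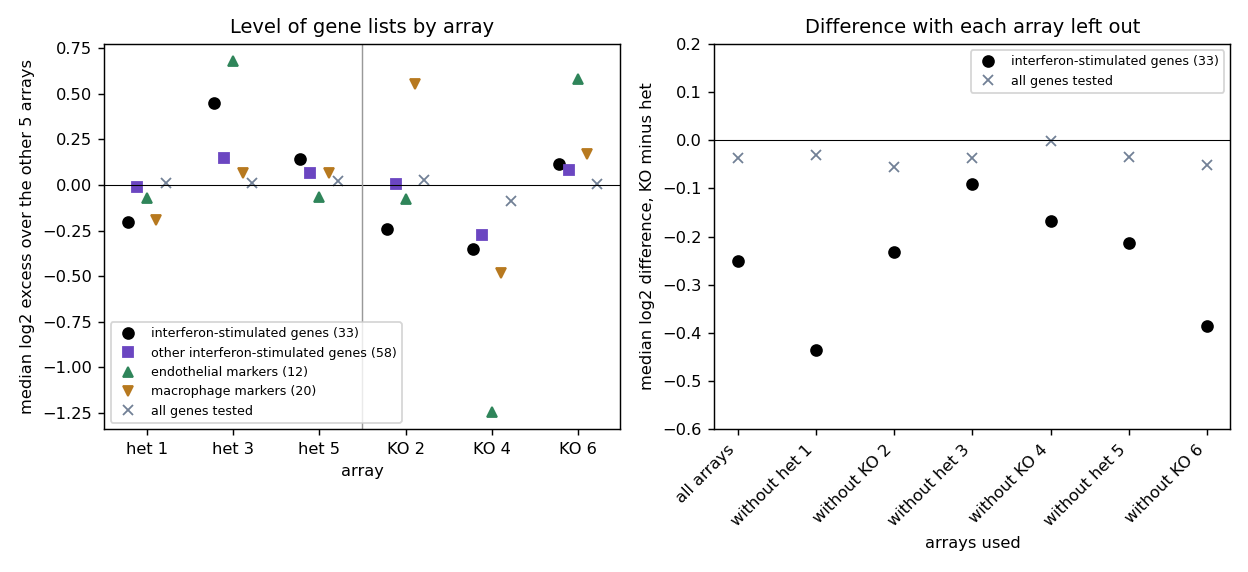
Left, median log2 excess of each array over the other 5 for the 33 interferon-stimulated genes, other interferon-stimulated genes, endothelial markers, macrophage markers and all genes tested (number of genes in brackets). Right, median log2 difference of knockout minus heterozygous samples with all arrays and with each array left out. Heterozygous replicate 3 is the highest array for the 33 genes (0.45) and for endothelial markers (0.68), and the difference is nearest to 0 without it (-0.09).

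The genes with a response element core in the window were compared with those without, as a description. Heterozygous replicate 3 was the highest array for 10 of 14 tested genes with the core and for 6 of 11 without. The median excess of that array was 0.60 with the core and 0.31 without, and the median log2 difference between genotypes was -0.32 and -0.22. Oasl2, Psmb9 and Ifit2 had no core in their windows and were still highest in that array.

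Markers of the cell types that could carry these genes differed between the same arrays. In bulk tissue, fewer cells of a type and less RNA per cell cannot be told apart. The summed signal of 12 of 12 endothelial markers was 7797, 12718 and 8095 in heterozygous and 7750, 3912 and 11461 in knockout arrays. It was thus highest in heterozygous replicate 3 and lowest in knockout replicate 4, and the median log2 difference of these markers was -0.34. The second highest array was knockout replicate 6, where the median excess of these markers was 0.58 and that of the 33 interferon-stimulated genes 0.12. The part of endothelial cells in the differences was not tested.

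Macrophage markers (20 of 24 tested) ranged in sum from 16498 to 23292 in heterozygous and from 15690 to 22409 in knockout arrays. The sum was highest in heterozygous replicate 3, next in knockout replicate 2, and lowest in knockout replicate 4. By median excess they were highest in knockout replicate 2 (0.55), with 0.07 in heterozygous replicate 3. Of 12 lymphocyte markers 9 had a probe set under their symbol. These were mostly dim, with 2 of the 9 above the filter, and the T cell receptor complex genes Cd3e, Cd3d and Cd3g were all below it. The sum of the 2 tested markers ranged from 463 to 634 in heterozygous and from 336 to 496 in knockout arrays. For plasmacytoid dendritic cells, a main source of type I interferon, 5 of 6 markers passed the filter, with sums of 5389 to 5802 and 5506 to 6441. Most of each sum came from Tcf4, at 4952 to 5290 in heterozygous and 5025 to 5868 in knockout arrays. Of the 5 markers, 2 lay below and 3 above 0. Ccr9 was higher in every knockout array, with a log2 difference of 1.15 (limma adjusted p = 0.370). Granulocyte markers (4 of 8) summed to 970 to 3528 and 296 to 1909 and were highest in heterozygous replicate 5. Pericyte and smooth muscle markers (9 of 9 tested) summed to 10326 to 12812 and 7618 to 12362, highest in heterozygous replicate 3.

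Markers of cartilage and bone (8 of 10 tested) had a different order of arrays, with every knockout sum above every heterozygous one. Of the 8, 7 were higher in knockout samples at an unadjusted p under 0.05, against 3.15% of all genes, and Alpl had a log2 difference of -0.11. As the lists were chosen with earlier results of these data known, this share is a description only. The sums of the 8 were 8324 to 10908 in heterozygous and 12959 to 16295 in knockout arrays. None of the 8 passed an adjusted p of 0.05 in limma. The part of these cell types in the differences of the interferon-stimulated genes was not tested.

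The ligands and receptors of the pathway gave no call either. Of 20 interferon genes listed, 10 had a probe set of their own, and among these 9 lay below the filter, Ifnb1 and Ifng included. The exception was Ifnz, with a log2 difference of 0.50 and its highest signal in knockout replicate 4. Of 15 tested genes of interferon receptors and signalling, 0 passed an adjusted p of 0.05 and 0 had an unadjusted p under 0.05, where 3.2% of all genes were lower and 3.15% higher at that p. Their median log2 difference was -0.06, with 10 below and 5 above 0.

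The receptor genes with the smallest p were Il10rb (log2 difference -0.28), Ifnar2 (-0.41) and Ifnlr1 (0.38), with limma adjusted p-values of 0.444, 0.483 and 0.487. Il10rb and Ifnlr1 are the subunits of the interferon-lambda receptor, and Ifnar2 is a subunit of the type I receptor. Among 15 tested genes that act upstream of interferon, 10 lay below and 5 above 0, with a median of -0.07 and 0 at an unadjusted p under 0.05. Tlr4, Ticam1 and Tlr3, a pair of Toll-like receptors and their adaptor, had -0.51, -0.35 and -0.11. The median excess of heterozygous replicate 3 was 0.03 for the receptor list and 0.01 for the upstream list.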

How the data were processed

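The deposited table held signal intensity of 45101 probe sets on 6 Affymetrix mouse arrays on a linear scale, made by the authors with GCOS, per the submitters' processing notes, which as used here name no version. Per the labels' protocols, extraction used Qiagen reagents and labelling the NuGEN Ovation system. All values were used as deposited, since the trimmed means were equal. Genotype and replicate came from the titles. The 64 control probe sets were left out, values were taken as log2(signal + 16), and probe sets whose mean on that scale was under the 40th percentile were removed. To the remaining 27022, limma 3.58.1 was applied under R 4.3.3 (lmFit, eBayes with a variance trend, two-sided, Benjamini-Hochberg over all of them, threshold 0.05). Fold changes on this scale understate those of dim genes, and the number of arrays limits precision. Symbols came from the platform annotation. Promoter sequences were those of RefSeq. The single-gene test was tested on simulated data. The members and lists were chosen with earlier results of these data known. In full are given the 16 genes with the largest difference, Irf1, Irf7, Irf9, Stat2, Ifih1 and B2m, and for pathway lists up to 3 genes by p. Ifit2, Mx1 and others were added after their values were seen. Alternatives were other offsets (1 and 64), median centring, quantile normalisation, array weights, a 60th percentile filter or none, an untrended variance, the mean of probe sets, no x or s probe sets, and leaving out each array. Figures were drawn with matplotlib 3.10.9.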

Additional observations from a re-analysis of the deposited data

How the results depend on the processing

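No paired analysis was made because the labels name no pairs. The replicate numbers alternate between the genotypes, and whether this order marks pairs is not stated. No setting called a probe set of these genes, and the median log2 difference over the genes stayed below 0, from -0.45 to -0.21 without leaving out an array and from -0.44 to -0.09 with 1 left out. Median centring, which gave -0.45, moved the median of all genes from -0.04 to -0.24, and relative to it the genes stood at -0.21, as with the deposited scale. Over the whole table the number called was 3 with quantile normalisation, 3 with median centring, 0 with no filter, 0 with a 60th percentile filter and 25 with array weights, against 1. It ranged from 0 to 13 with 1 array left out, highest without knockout replicate 4. The count of these probe sets lower at an unadjusted p under 0.05 was 4 of 48 with quantile normalisation (3.56% of all probe sets), 11 of 48 with median centring (11.2%), 0 of 30 with a 60th percentile filter (2.74%) and 7 of 48 with array weights (4.05%), against 2 of 48 (2.47%). It ranged from 1 (without heterozygous replicate 3 or 5 or knockout replicate 2) to 12 (without heterozygous replicate 1). The count higher was 1 of 61 with no filter (7.19%), against 0, and from 0 to 1 with 1 array left out. Genes with all knockout arrays below all heterozygous ones numbered 8 with median centring (24.9% of all genes) and 5 with the mean of probe sets (7.09%), against 2 (7.03%). With 1 array left out they numbered 2 to 12 (9.93% to 17% of all genes). Genes with all knockout arrays above numbered 0 with median centring (1.52% of all genes), against 1 (6.05%). With 1 array left out they numbered 1 to 3 (8.42% to 14.2% of all genes).

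For the 18 named genes, 271 of 281 alternative values kept their direction and their side of the threshold, with a lowest limma adjusted p of 0.180. The other 10 turned in sign. Stat2 gave -0.15 with quantile normalisation, -0.19 with median centring, -0.10 with array weights, -0.35 with the mean of probe sets, and from -0.10 to 0.17 with 1 array left out. B2m gave -0.034 with quantile normalisation and -0.10 with median centring. Cxcl10 gave 0.25 without heterozygous replicate 3 and as low as -0.86 with another array left out. The cause of these changes was not tested.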

Other observations

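A further list of interferon-stimulated genes, with 58 of 90 tested, showed a smaller difference between arrays. Of the 58 genes, 41 lay below and 17 above 0, with a median log2 difference of -0.12. At an unadjusted p under 0.05, 2 genes were lower, against 3.2% of all genes, and 0 were higher. These were Cmpk2, a mitochondrial nucleotide kinase (log2 difference -0.78), and Lgals3bp, a secreted glycoprotein (-0.54), with limma adjusted p-values of 0.370 and 0.374. Ifitm1, a membrane protein that blocks virus entry, followed with -0.51. Heterozygous replicate 3 was the highest array for 23 of the 58 genes, where it was highest for 17.1% of all genes, and its median excess was 0.15. Within that list the excess of the same array was 1.78 for Ifi47, an Irg family GTPase, 1.44 for Ifi44l, 1.34 for Nlrc5, the transactivator of class I genes, 1.09 for Cmpk2 and 1.03 for Trim30a, genes that were chosen here after their values were seen. Ifi47 gave 66.0, 255 and 77.6 in heterozygous replicates 1, 3 and 5 and 64.6, 29.5 and 93.4 in knockout replicates 2, 4 and 6. The bright members Ifi30, Tapbp and Psme1 differed by little in that array, with an excess of 0.04, 0.04 and -0.06. Other bright members, Ifitm1, Ifitm2 and Gbp7, had an excess of 0.58, 0.40 and 0.50. These examples were not chosen by a fixed rule.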
